A study of Mus musculus with 11 samples.

Results

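Acid secretion by the stomach is set by a small group of receptors, and 7 receptor genes were followed here in the corpus mucosa of mice: Hrh2, Chrm3, Cckbr, Sstr2, Ptger3, Casr and Gpr155. They were taken by name from the 34866 genes of the deposited count table. The question was which of them follow the loss of parietal cells, the acid-secreting cells of the corpus. Bulk RNA sequencing covered 11 samples: 2 from wild-type mice, which are the controls, and 3 from each of 3 engineered genotypes. These are ATP4B-DTR, GIF-DTR and their combination, labelled GIF/ATP4B-DTR and called the double line below. DTR stands for the diphtheria toxin receptor, which makes mouse cells that carry it sensitive to the toxin. The lines are named for Atp4b, a subunit of the parietal cell's proton pump, and for Gif, intrinsic factor, which mouse chief cells make. The study built them so that parietal cells, chief cells or both could be removed. The labels give neither the construct, the toxin schedule, the age nor the sex of the mice, and they do not say whether the samples came from separate animals, so the p-values below measure the spread between these samples.

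As background, a parietal cell raises acid output when histamine, acetylcholine or gastrin reaches it. Histamine comes from enterochromaffin-like cells and acts on the H2 receptor, which raises cyclic AMP through the G protein Gs. Acetylcholine from nerve endings acts on the M3 muscarinic receptor and gastrin on the cholecystokinin B receptor, both of which raise cell calcium through Gq. Gastrin also releases histamine from enterochromaffin-like cells. Somatostatin and prostaglandin E2 hold secretion back through receptors coupled to Gi. Because the samples were bulk tissue, fewer cells of a type and less RNA per cell cannot be told apart in any value below.

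Hrh2, Chrm3, Sstr2 and Gpr155 moved together and Cckbr did not. They are introduced by the DNA just upstream of their transcription starts, so that their letters can be compared. The stretches are RefSeq sequence of mouse build GRCm38.p6, taken from up to 250 bases before the annotated start and cut back where the GENCODE vM21 gene model begins further upstream. Letters are lower case 5′ to 3′ on the gene's own strand. Capitals mark matches, on either strand, to a GC box (GGGCGG) or to a cAMP response element (TGACGTCA). A TATA box (TATAAA) and an estrogen-related receptor site (TCAAGGTCA) were also searched on both strands, and neither was present in the windows of the 7 genes. The 4 motifs were picked with these sequences in view.
Hrh2, chr13:54191879-54192128, plus strand: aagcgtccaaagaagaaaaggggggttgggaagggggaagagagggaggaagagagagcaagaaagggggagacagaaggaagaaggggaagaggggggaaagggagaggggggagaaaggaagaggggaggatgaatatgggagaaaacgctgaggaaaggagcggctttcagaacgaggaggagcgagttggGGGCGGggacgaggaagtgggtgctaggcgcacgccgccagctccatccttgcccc
Chrm3, chr13:10360848-10361053, minus strand: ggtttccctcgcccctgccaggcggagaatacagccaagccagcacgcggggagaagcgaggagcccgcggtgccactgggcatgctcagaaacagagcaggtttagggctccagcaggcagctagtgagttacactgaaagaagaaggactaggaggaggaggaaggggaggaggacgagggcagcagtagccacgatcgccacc
Sstr2, chr11:113619077-113619326, plus strand: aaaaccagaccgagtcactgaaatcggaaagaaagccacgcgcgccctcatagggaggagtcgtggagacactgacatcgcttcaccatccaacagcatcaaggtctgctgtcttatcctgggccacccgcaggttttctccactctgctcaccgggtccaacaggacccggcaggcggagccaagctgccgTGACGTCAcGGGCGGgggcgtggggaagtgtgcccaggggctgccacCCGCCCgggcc
Gpr155, chr2:73386573-73386730, minus strand: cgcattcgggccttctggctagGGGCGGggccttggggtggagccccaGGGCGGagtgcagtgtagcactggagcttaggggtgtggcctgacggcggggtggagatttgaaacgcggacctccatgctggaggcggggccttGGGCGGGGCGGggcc
Cckbr, chr7:105425481-105425730, plus strand: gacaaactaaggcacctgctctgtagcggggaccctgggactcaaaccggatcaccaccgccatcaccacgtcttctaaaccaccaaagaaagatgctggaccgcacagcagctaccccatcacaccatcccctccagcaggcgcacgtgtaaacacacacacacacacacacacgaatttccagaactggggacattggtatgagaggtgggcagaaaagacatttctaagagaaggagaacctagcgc
The Sstr2 window held the single cAMP response element among the 7 genes, beginning at position -58 from the RefSeq start, where 1.55% of the 32851 RefSeq promoter windows of that length hold one. It lies directly beside a GC box, and Sstr2 held 2 GC boxes, Hrh2 held 1 and the Gpr155 window 4, of which a pair overlap. The Chrm3, Cckbr and Casr windows held none, and that of Ptger3 held 3. The Ptger3 and Casr windows are not printed. A GC box is common, being present in 32.7% of all windows of 250 bases and in 17.8% of windows of Gpr155's length. The receptors whose transcripts fell therefore had no motif of the 4 in common, which says only that these letters are not in these windows.

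Levels are given as CPM, counts per mega-count of a library after scaling by the trimmed mean of M-values. Library totals ran from 20.7 to 27.9 M counts (M, mega). The targeted gene Atp4b had 4786 and 4365 CPM in wild type and 3470, 2136 and 2784 where only chief cells were the target. It was at 475, 641 and 683 CPM in the ATP4B-DTR samples and at 158, 468 and 243 in the double line, so the libraries went the way of their labels. Gif, at 702 and 2303 CPM in the controls, was at 65.5 to 218 where chief cells were a target (6 samples). The summed level of 11 parietal markers was 19250 to 20987 CPM in control, 4341 to 6188 in ATP4B-DTR, 9288 to 11433 in GIF-DTR and 2159 to 3593 in GIF/ATP4B-DTR. Parietal markers were thus lower in GIF-DTR too, where parietal cells were not the target. The sum of 5 chief markers was 85896 to 192479 CPM in control, 17004 to 62016 in ATP4B-DTR, 5108 to 22615 in GIF-DTR and 2823 to 12425 in GIF/ATP4B-DTR. Y-linked genes split the samples across the groups: Ddx3y had 737 to 1495 counts in 6 samples (both controls, ATP4B-DTR 1 and the 3 GIF/ATP4B-DTR samples) and at most 2 counts in the other 5. In GIF-DTR against control, and in GIF/ATP4B-DTR against GIF-DTR, genotype and Y-linked expression cannot be told apart within the 2 groups compared.

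In controls the receptors were scarce beside the pump. Per kilobase of exon, Gpr155 (11.4 CPM per kb), Sstr2 (11.3) and Hrh2 (9.76) stood highest in mean level, with overlapping values in the 2 controls. Chrm3 followed at 3.59 CPM per kb, Ptger3 at 1.59 and Cckbr at 1.29, while Casr was at 0.0414. Atp4a and Atp4b, the catalytic and the smaller pump subunit, stood at 3034 and 3032 CPM per kb. In GIF/ATP4B-DTR the mean levels per kilobase were 1.96 for Sstr2, 1.77 for Hrh2, 1.17 for both Chrm3 and Cckbr, 0.331 for Ptger3 and 0.31 for Gpr155. Gpr155 had thus gone from the head of the order to the level of Ptger3, with only Casr (0.0231) below.

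**Figure D1:**
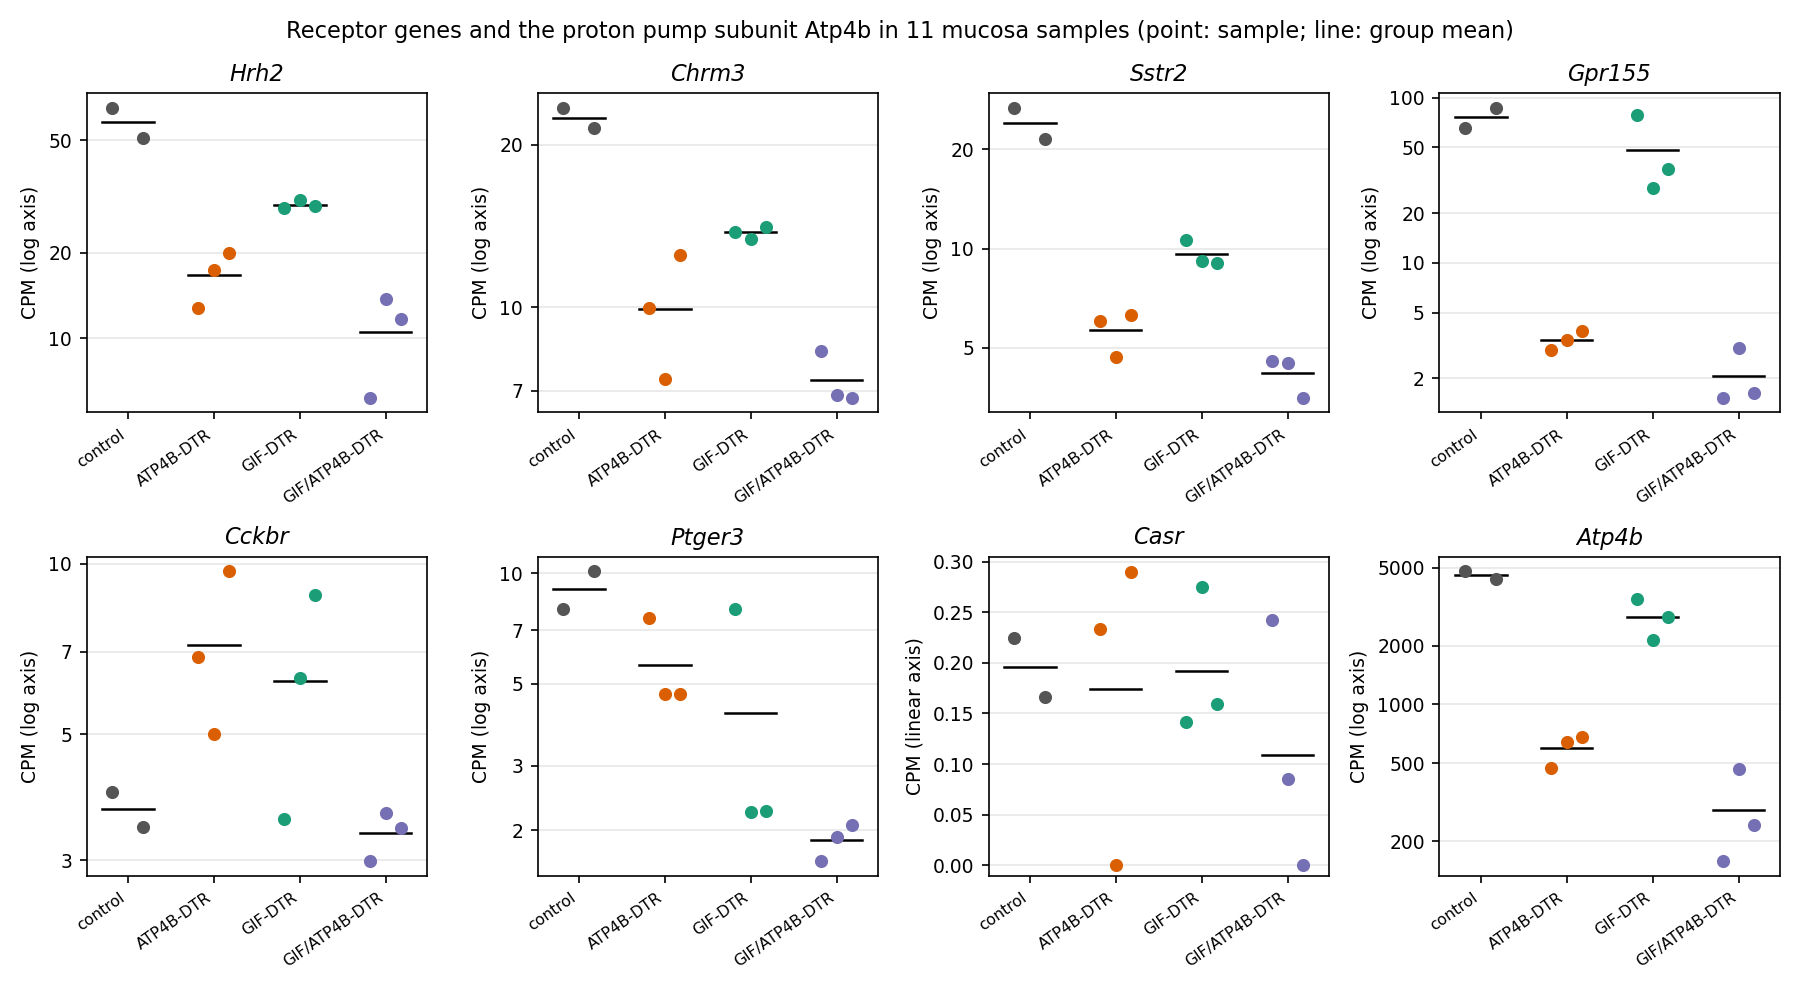
Level of each receptor gene and of the pump subunit Atp4b, in CPM on a log axis (linear for Casr), in each of the 11 samples by genotype. Points are samples and bars are group means. Hrh2, Chrm3, Sstr2 and Gpr155 are lower in all 6 samples of the lines with the parietal target than in the other 5, and Cckbr is not.

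Hrh2, the histamine H2 receptor, lies on chr13:54192129-54236180 (GRCm38, plus strand) as ENSMUSG00000034987.4. Its level was 64.9 and 51 CPM in the controls and 12.8, 17.4 and 20 CPM in the 3 ATP4B-DTR samples. In GIF-DTR it was 28.9, 30.7 and 29.2 CPM, and in GIF/ATP4B-DTR 6.17, 13.7 and 11.7 CPM. The controls were highest, GIF-DTR lay between without touching either neighbour, and both lines with the parietal target overlapped at the bottom. Group means were 57.9 ± 9.82 CPM (SD, n = 2), 16.7 ± 3.65 (n = 3), 29.6 ± 0.978 (n = 3) and 10.5 ± 3.91 (n = 3) in the same order. Against control Hrh2 was 3.46-fold lower in ATP4B-DTR (log2 change -1.79 ± 0.28 SE, edgeR adjusted p = 0.00175). It was 1.96-fold lower in GIF-DTR (-0.97 ± 0.27, edgeR adjusted p = 0.0352) and 5.5-fold lower in GIF/ATP4B-DTR (-2.46 ± 0.28, edgeR adjusted p = 0.000164). In 10 samples its count was fractional, the mark of reads divided with another gene, and its level is to that extent uncertain. The antisense gene Gm16578 overlaps it, and whether counting used strand is not given in the sources used here.

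Chrm3, the M3 muscarinic receptor for acetylcholine, lies on chr13:9875486-10360847 (minus strand). It stood at 23.4 and 21.5 CPM in the controls, at 9.96, 7.37 and 12.5 in the samples of ATP4B-DTR, at 13.8, 13.4 and 14.1 in those of GIF-DTR and at 8.31, 6.88 and 6.8 in those of GIF/ATP4B-DTR. The order of the genotypes was that of Hrh2, with a narrower range. Chrm3 was 2.25-fold lower in ATP4B-DTR than in control (log2 -1.17 ± 0.20 SE, edgeR adjusted p = 0.00259) and 3.05-fold lower in GIF/ATP4B-DTR (-1.61 ± 0.20, edgeR adjusted p = 0.000218). In GIF-DTR it was 1.62-fold lower (-0.70 ± 0.20, edgeR adjusted p = 0.0343). Its locus also holds noncoding gene models on both strands, among them antisense Gm26861. Smooth muscle and nerve cells make this receptor too. The 7 smooth muscle markers summed to 376 and 2194 CPM in the controls, beside 23.4 and 21.5 CPM for Chrm3, and their part in the Chrm3 values was not tested.

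Cckbr, the receptor for gastrin and cholecystokinin, did not pass edgeR's test in any comparison of levels. On chr7:105425731-105470898 (plus strand), it stood at 3.95 and 3.44 CPM in control and at 6.84, 5 and 9.69 CPM in ATP4B-DTR. In GIF-DTR it was 3.55, 6.29 and 8.81 CPM, and in GIF/ATP4B-DTR 2.99, 3.63 and 3.42 CPM. All 3 ATP4B-DTR samples lay above both controls, 1 GIF-DTR sample lay among the controls, and the GIF/ATP4B-DTR samples lay beside the controls. Against control the log2 change was 0.96 ± 0.39 SE in ATP4B-DTR (edgeR adjusted p = 0.101), 0.75 in GIF-DTR (edgeR adjusted p = 0.207) and -0.14 in GIF/ATP4B-DTR (edgeR adjusted p = 0.789). The interaction asks whether the parietal target acts differently where chief cells are a target too, and for Cckbr it was -1.85 ± 0.51 (edgeR adjusted p = 0.119). DESeq2 called that interaction (-1.83, adjusted p = 0.0222, with 0.0222 to 0.589 over the alternatives). Counts were between 62 and 234 per sample.

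Sstr2, a somatostatin receptor and thus a brake on acid output, lies on chr11:113619342-113626028 (plus strand) and overlaps Slc39a11 on the other strand. It stood at 26.7 and 21.5 CPM in the controls, at 6.01, 4.7 and 6.3 in the samples of ATP4B-DTR, at 10.6, 9.16 and 9.05 in those of GIF-DTR and at 4.56, 4.49 and 3.53 in those of GIF/ATP4B-DTR. No sample of the GIF-DTR line reached the range of its neighbours on either side. The inhibitory receptor therefore ran in the same order as the stimulatory Hrh2 and Chrm3. Sstr2 was 4.26-fold lower than control in ATP4B-DTR (log2 -2.09 ± 0.20 SE, edgeR adjusted p = 0.000126) and 5.74-fold lower in GIF/ATP4B-DTR (-2.52 ± 0.20, edgeR adjusted p = 1.83e-05). In GIF-DTR it was 2.51-fold lower (-1.33 ± 0.19, edgeR adjusted p = 0.00225).

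Ptger3 encodes the EP3 receptor, through which prostaglandin E2 lowers acid output, on chr3:157566892-157645888 (plus strand). It stood at 7.99 and 10.1 CPM in the controls, at 7.54, 4.7 and 4.68 in the samples of ATP4B-DTR, at 7.99, 2.24 and 2.26 in those of GIF-DTR and at 1.65, 1.92 and 2.07 in those of GIF/ATP4B-DTR. GIF-DTR 1 sat with the controls, while GIF-DTR 2 and 3 sat near the double line. Ptger3 was 4.79-fold lower than control in GIF/ATP4B-DTR (log2 -2.26 ± 0.50 SE, edgeR adjusted p = 0.00545). In the single lines the change did not pass the test, at -0.68 in ATP4B-DTR (edgeR adjusted p = 0.353) and -1.13 in GIF-DTR (edgeR adjusted p = 0.142). Without GIF-DTR 1 the change in GIF-DTR was -2.01 (edgeR adjusted p = 0.005, with 0.005 to 0.835 over the alternatives). GIF-DTR 1 was also the sample with the highest smooth muscle sum, 2576 CPM against 694 or less in GIF-DTR 2 and 3. The sum was 376 and 2194 CPM in the controls, 536 to 1244 in ATP4B-DTR and 266 to 644 in GIF/ATP4B-DTR. In GIF/ATP4B-DTR against control the median log2 change of the 7 markers was -1.20, and none of them passed the test. Their part in the Ptger3 values was not tested.

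Casr, the calcium-sensing receptor of gastrin cells and parietal cells (chr16:36493696-36562141, minus strand), could not be measured at this depth. It had 5 and 3 counts in the controls, 5, 0 and 7 in ATP4B-DTR, 3, 7 and 4 in GIF-DTR and 6, 2 and 0 in GIF/ATP4B-DTR. Counts this low did not pass the filter, and the level that 3 counts stand for is 0.107 to 0.166 CPM. Its highest sample was at 0.29 CPM. With the filter lifted, edgeR adjusted p ranged from 0.69 upward over the comparisons, so a difference was not detectable.

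Gpr155 had the largest fold change of the receptors with the parietal target. The gene encodes a lysosomal membrane protein known as a cholesterol sensor, not a classical secretagogue receptor, and it lies on chr2:73341506-73386572 (minus strand) with the antisense models Gm13703 and Gm13709 over it. Its level was 65.6 and 86.5 CPM in control and 78.1, 28.5 and 37.1 CPM in GIF-DTR. In ATP4B-DTR it was 2.98, 3.42 and 3.85 CPM, and in GIF/ATP4B-DTR 1.53, 3.04 and 1.64 CPM. Every sample with the parietal target was thus far below every sample without it, and 1 GIF-DTR sample lay among the controls. Gpr155 was 22.2-fold lower than control in ATP4B-DTR (log2 -4.47 ± 0.43 SE, edgeR adjusted p = 0.000279) and 37-fold lower in GIF/ATP4B-DTR (-5.21 ± 0.45, edgeR adjusted p = 5.32e-05). The change in GIF-DTR was -0.67 ± 0.39 and did not pass (edgeR adjusted p = 0.271). Without GIF-DTR 1 that change was -1.22 (edgeR adjusted p = 0.0192, with 0.0192 to 0.585 over the alternatives).

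As a count, 4 of the 6 receptors that could be tested (Hrh2, Chrm3, Sstr2 and Gpr155) were called lower in ATP4B-DTR than in control, where 9.39% of all 14889 genes tested were called lower. The median log2 change of the 6 was -1.48, against -0.01 over all genes. In GIF-DTR 3 of the 6 were called lower (Hrh2, Chrm3 and Sstr2), beside 6.82% of all genes, with a median of -0.84. In GIF/ATP4B-DTR it was 5 of the 6, beside 15.4% of all genes, with a median of -2.36 against -0.04. Cckbr alone did not pass there. These 3 comparisons share the 2 controls. With an index of Y-linked expression in the model, which is 1 where Y-linked genes were expressed and otherwise 0, the counts were 4 for ATP4B-DTR, 0 for GIF-DTR and 5 for the double line. The log2 changes in GIF-DTR were then -1.52 for Hrh2 (edgeR adjusted p = 0.107), -1.20 for Sstr2 (0.098) and -0.70 for Chrm3 (0.307). Without the index they were -0.97, -1.33 and -0.70. Over all genes too, fewer were called in GIF-DTR with the index or with some single samples left out, as counted in the last section. The same held for ATP4B-DTR with the index. Without GIF-DTR 2, GIF-DTR 3 or either control, 1 receptor was called lower in GIF-DTR. The calls of Hrh2 and Chrm3 there were lost without any 1 of the 5 samples compared, with edgeR adjusted p from 0.0674 to 0.187.

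**Figure D2:**
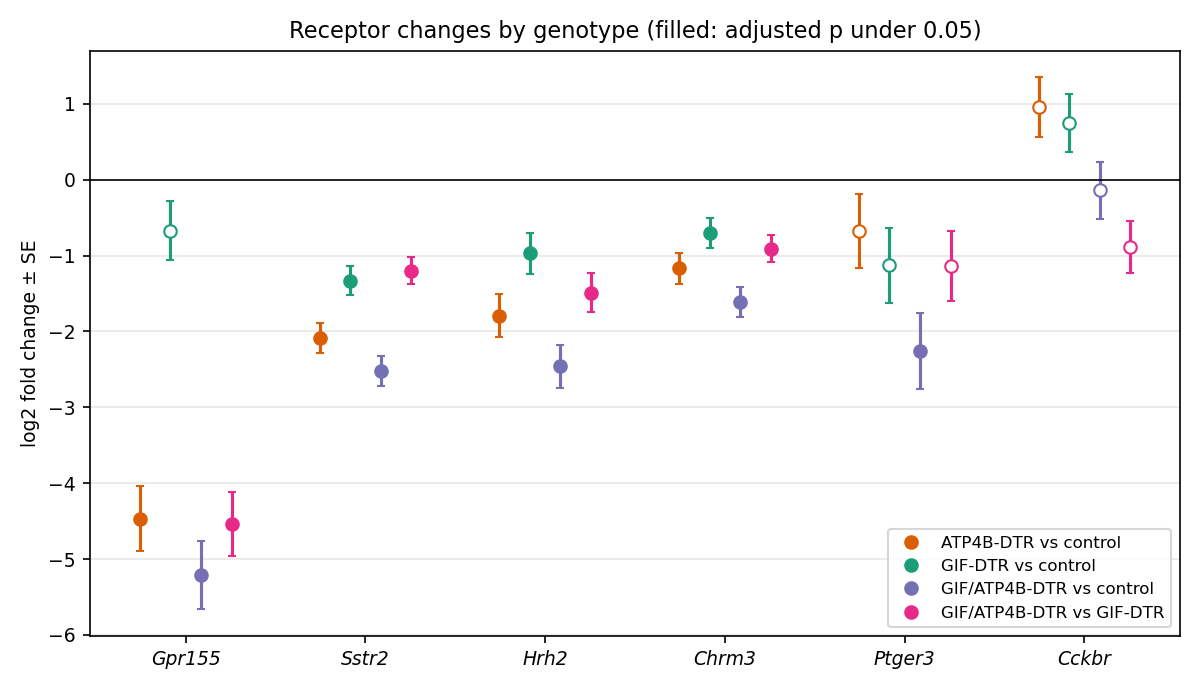
Log2 fold change of the 6 receptors tested, with its SE, in 4 comparisons; filled points have an edgeR adjusted p under 0.05. Gpr155 is near -4.5 or below in the 3 comparisons in which the parietal target differs and at -0.67 in GIF-DTR against control, while no Cckbr point is filled.

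The lines were then set against each other, which leaves the controls out. From GIF-DTR to GIF/ATP4B-DTR, where parietal cells become a second target, 4 of the 6 receptors were called lower, beside 2.19% of all genes, with a median of -1.17 against 0.01. Gpr155 was 23.3-fold lower (log2 -4.54 ± 0.42 SE, edgeR adjusted p = 0.000501), Hrh2 2.81-fold (-1.49 ± 0.26, edgeR adjusted p = 0.0115), Sstr2 2.3-fold (-1.20 ± 0.18, edgeR adjusted p = 0.00516) and Chrm3 1.88-fold (-0.91 ± 0.18, edgeR adjusted p = 0.0243). With an index of Y-linked expression in the model 0 of them were called, when only 14 of all genes were called in place of 376. Gpr155 was then at -4.25 (edgeR adjusted p = 0.145), Sstr2 at -1.33 (0.315), Chrm3 at -0.91 (0.584) and Hrh2 at -0.94 (0.675), each p the highest over that receptor's alternatives. In that fit the Y-linked term rests on the ATP4B-DTR samples, the sole group holding samples of both kinds. The Chrm3 call was also lost without any 1 of the GIF-DTR samples (edgeR adjusted p from 0.0589 to 0.0799) and without GIF/ATP4B-DTR 2 (0.075) or 3 (0.114).

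Between the single lines Gpr155 was the 1 receptor called, standing 13.9-fold above the ATP4B-DTR level in GIF-DTR (log2 3.80 ± 0.40 SE, edgeR adjusted p = 0.00324), where 0.403% of all genes were called higher. In the 5 samples of these lines without Y-linked expression the difference was 3.70 (edgeR adjusted p = 0.119, the highest over its alternatives). In the fit of all 11 samples the difference was 0.76 for Sstr2 (edgeR adjusted p = 0.125), 0.82 for Hrh2 (edgeR adjusted p = 0.258) and 0.47 for Chrm3 (edgeR adjusted p = 0.411). DESeq2 called Sstr2 (0.76, adjusted p = 0.0109, with 0.0109 to 0.408 over the alternatives). For Hrh2 and Chrm3 no alternative passed, with adjusted p from 0.0656 and 0.135 upward. All 3 GIF-DTR samples were above all 3 ATP4B-DTR samples for each of these 3 receptors. From ATP4B-DTR to GIF/ATP4B-DTR edgeR called 0 receptors and 0% of all genes, with 1554 genes at an unadjusted p under 0.05, and DESeq2 called 294 genes, of which 0 were receptors. The 6 log2 changes there ran from -0.44 for Chrm3 and Sstr2 to -1.58 for Ptger3 (edgeR adjusted p = 0.248).

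Averaging over the second target lets all 11 samples enter and asks which receptors go with the parietal target. It sets GIF-DTR beside control as a line without that target. Parietal markers were lower in GIF-DTR too, summing to 9288 to 11433 CPM against 19250 to 20987 in control. The contrast is therefore of the target, not of parietal cell loss as such. With the parietal target present, Hrh2, Chrm3, Sstr2 and Gpr155 were called lower and Ptger3 and Cckbr were not, beside 11.1% of all genes called lower. The median of the 6 was -1.34, against -0.01 over all genes. The mean log2 effect was -4.50 ± 0.30 SE for Gpr155 (edgeR adjusted p = 1.59e-05), -1.64 ± 0.13 for Sstr2 (2.3e-05), -1.64 ± 0.19 for Hrh2 (0.000272) and -1.04 ± 0.14 for Chrm3 (0.000483). Ptger3 stood at -0.91 ± 0.34 (edgeR adjusted p = 0.0682) and Cckbr at 0.03 ± 0.25 (edgeR adjusted p = 0.941). Ptger3 passed without GIF-DTR 2 (edgeR adjusted p = 0.0392), without GIF-DTR 3 (0.0374) and with DESeq2 (0.0342), over a range of 0.0342 to 0.191. For the 4 that were called, none of the 6 samples with the parietal target reached the lowest of the 5 without it. An exact two-sided permutation test over the samples gave p = 0.00216 for Hrh2, Sstr2 and Gpr155, the smallest that 462 arrangements allow. It gave 0.00433 for Chrm3, 0.273 for Ptger3 and 0.976 for Cckbr. These 4 calls held in all 19 alternatives tried for each, the model with Y-linked expression among them. The summed immune markers ran in the same order, 112 to 130 CPM in control, 49.1 to 64.2 in GIF-DTR, 34.2 to 41.9 in ATP4B-DTR and 24 to 27.4 in GIF/ATP4B-DTR. Kit made up most of that sum in the controls, at 82.1 and 89.1 CPM, and 5.49 to 14.9 CPM of it in the lines with the parietal target. Without it the order was the same over a narrower range, 29.5 to 40.6 CPM in control, 26.7 to 33.5 in GIF-DTR, 22.2 to 27 in ATP4B-DTR and 15.8 to 20.9 in GIF/ATP4B-DTR. GIF-DTR then overlapped both of its neighbours, and the double line lay below all other samples. Of the 6 genes tested of 8 in that list, 2 were called lower with the parietal target, Kit at -2.43 and Ptprc at -0.89. Of the markers of other cell types, Muc6 of mucous neck cells (4-fold, edgeR adjusted p = 0.00413), Muc5ac of pit cells (log2 -1.04) and Kdr of endothelium (log2 -2.32) were also called lower. They were 1 of 2 neck, 1 of 4 pit and 1 of 5 endothelial markers, and the median log2 change was -0.20 over the pit markers and -1.77 over the endothelial ones. Muc6 was at 333 and 384 CPM in the controls and at 90.6 CPM or less in every other sample, while Tff2, the other neck cell marker, was at -0.15 and did not pass. The 2 antral markers summed to at most 0.359 CPM in control and to 0.922 to 9.2 CPM in the 3 lines, and Pdx1 was called higher than control in GIF-DTR (4.45) and GIF/ATP4B-DTR (4.33). The part of these genes' cell types in the receptor values was not tested.

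The same average over the chief target called 4 receptors lower as well, beside 6.6% of all genes, with a median of -0.76 over the 6 receptors against -0.01. The difference between the averaged effects of the targets is by construction that between the single lines, given above, where edgeR called Gpr155 and DESeq2 called Gpr155 and Sstr2. Ptger3 was at -1.35 ± 0.34 SE (edgeR adjusted p = 0.021), Sstr2 at -0.88 ± 0.13 (0.00265), Hrh2 at -0.82 ± 0.19 (0.0153) and Chrm3 at -0.57 ± 0.14 (0.0169). Gpr155 at -0.70 ± 0.28 (edgeR adjusted p = 0.121) and Cckbr at -0.17 (0.686) did not pass. Without GIF-DTR 1 Gpr155 did, at -0.97 (edgeR adjusted p = 0.00939, with 0.00939 to 0.274 over the alternatives). The exact permutation test, which does not take the parietal target into account, gave 0.013 for Ptger3 and between 0.255 and 0.844 for the other 5. Leaving out either control left 2 receptors called: Hrh2 (edgeR adjusted p = 0.0554) and Chrm3 (0.0591) were lost without control 1, Ptger3 (0.0709) and Chrm3 (0.0504) without control 2. Of the marker lists, 5 of 11 parietal markers were called lower with the chief target (median -0.63), as were Muc6 of the 2 neck cell markers and Kit of the 6 immune markers tested. The sum of 5 tuft cell markers also went with the chief target, at 38.3 to 41.7 CPM in control, 30.9 to 43.1 in ATP4B-DTR, 19.6 to 24 in GIF-DTR and 22.1 to 25.1 in GIF/ATP4B-DTR. Of the 3 genes of that list tested, Dclk1 (-0.94) and Trpm5 (-0.52) were called lower, and Pou2f3 was at -0.34 (edgeR adjusted p = 0.379), with a mean of 1.69 CPM in control, 1.7 CPM in the GIF-DTR line, 2.5 CPM in the double line and 4.02 CPM in ATP4B-DTR. Pou2f3 was called higher with the parietal target (0.90, edgeR adjusted p = 0.0216). The part of these cell types in the receptor values was not tested. For the interaction of the targets edgeR called 0 receptors, beside 0.651% of all genes (97 called and 2329 at an unadjusted p under 0.05), and DESeq2 called Sstr2 higher (0.91, adjusted p = 0.0481) and Cckbr lower.

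**Figure D3:**
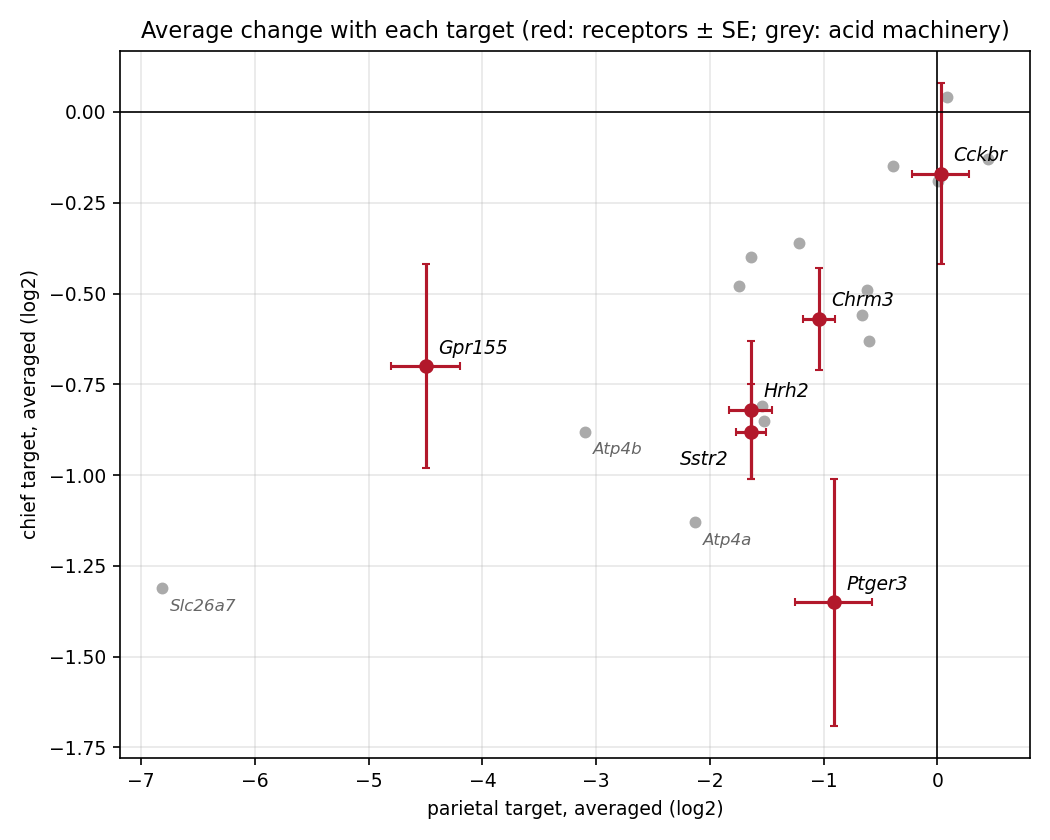
Mean log2 change with the parietal target (x axis) against that with the chief target (y axis), each averaged over the other target, for the 6 receptors tested (red, ± SE) and for 15 genes of the acid-secreting machinery (grey). Gpr155 lies far to the left at -4.50, between Slc26a7 and Atp4b, Hrh2 and Sstr2 coincide near -1.64, and Cckbr lies at 0.03.

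Whether a receptor fell as far as the acid pump was tested on the difference between its log2 level and the mean of Atp4a and Atp4b in the same sample. A value of 0 is a fall like that of the pump. Averaged over the chief target, Gpr155 fell further than the pump, by 1.75 on the log2 scale (estimate -1.75, 95% interval -2.38 to -1.11, limma adjusted p = 1.05e-07), where 0.208% of all genes were called lower. The other 5 receptors fell less far or not at all: Sstr2 was higher relative to the pump by 1.04 (0.38 to 1.71), Hrh2 by 0.99 (0.39 to 1.6), Chrm3 by 1.62 (0.99 to 2.25), Ptger3 by 1.9 (1.15 to 2.65) and Cckbr by 2.73 (2.01 to 3.45). That says little by itself, since 98.5% of all genes were called higher relative to the pump, with a median of 2.66. Hrh2 and Sstr2 are the receptors nearest to the pump. In ATP4B-DTR against control their differences of 0.75 (-0.16 to 1.65, limma adjusted p = 0.109) and 0.47 (-0.52 to 1.47, limma adjusted p = 0.353) did not pass, in a comparison in which 94.4% of all genes were called higher, with Chrm3, Ptger3 and Cckbr among them, and 0.322% lower, with Gpr155 among them (-1.89). In GIF/ATP4B-DTR against control all 5 were called higher, beside 97.7% of all genes, and Gpr155 lower (-1.46), beside 0.228%. The Hrh2 difference in ATP4B-DTR passed against Atp4b alone (1.14, limma adjusted p = 0.0279) and without GIF/ATP4B-DTR 1 (0.0367) or 2 (0.0308), over a range of 0.0279 to 0.425. In GIF/ATP4B-DTR against control, leaving out either control left 3 of the 5 called, and Gpr155 was not called without control 2 (-1.21, limma adjusted p = 0.0678). Measured against Atp4a alone, the averaged differences were 0.50 for Hrh2 (limma adjusted p = 0.0827) and 0.55 for Sstr2 (limma adjusted p = 0.0839), and no longer passed, these being the highest p over their alternatives. As a share of the control mean, Hrh2 was at 28.8%, Sstr2 at 23.5% and Atp4a at 22.9% in ATP4B-DTR, beside 44.4% for Chrm3, 13.1% for Atp4b and 4.49% for Gpr155.

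**Figure D4:**
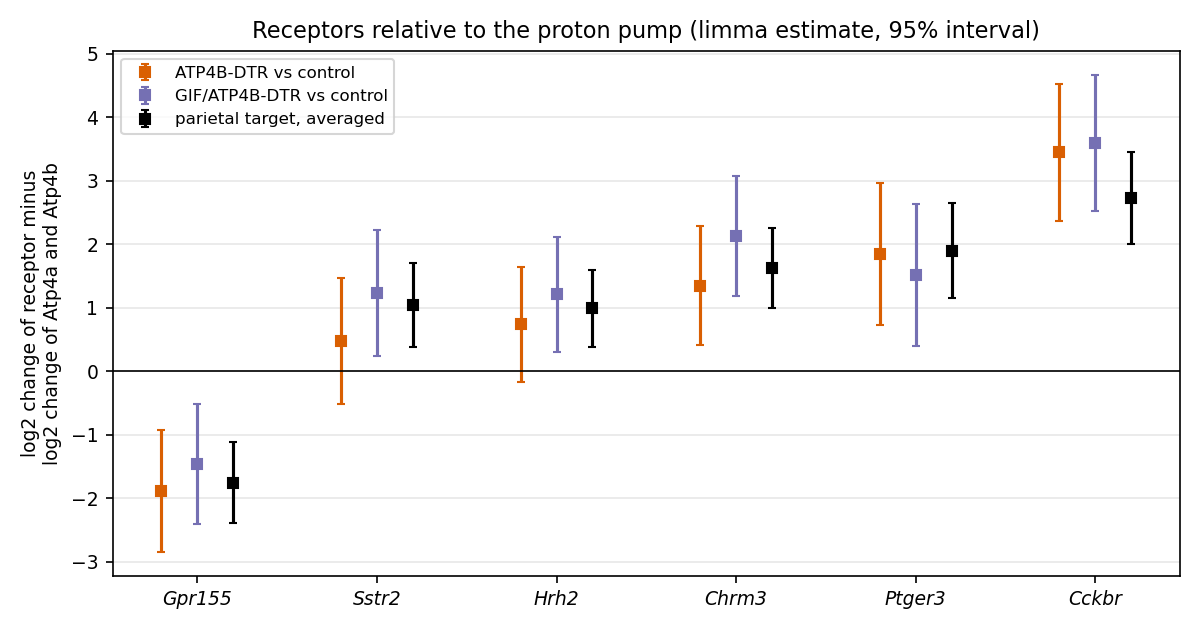
Change of each receptor minus the change of the proton pump (mean of Atp4a and Atp4b) on the log2 scale, with 95% intervals, for the lines with the parietal target against control and for the parietal target averaged over the 4 genotypes. Gpr155 lies below 0 throughout, Sstr2 and Hrh2 in ATP4B-DTR have intervals that include 0, and Cckbr lies highest.

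The share of ligand genes called higher was near that of all genes. Of 12 ligand genes tested of 14 listed, 0 were called lower and 2 higher with the parietal target, beside 14.2% of all genes called higher, with a median of 0.18 against -0.01 over all genes. Ddc, an amine-forming decarboxylase, rose by 1.62 ± 0.26 (edgeR adjusted p = 0.00171), and Ptges3, a prostaglandin E synthase and cochaperone, by 0.61 ± 0.13 (edgeR adjusted p = 0.00657). Hdc, which makes histamine, stood at 10.6 and 19.9 CPM in the controls, at 51.2, 25.5 and 60.3 in the samples of ATP4B-DTR, at 8.18, 22.1 and 39.8 in those of GIF-DTR and at 29.5, 19.9 and 20.7 in those of GIF/ATP4B-DTR. Every ATP4B-DTR sample was above both controls, but the average effect of 0.79 ± 0.41 did not pass (edgeR adjusted p = 0.185). Sst, the somatostatin gene, was at 0.40 ± 0.33 (edgeR adjusted p = 0.4). Ptgs1, a cyclooxygenase of prostaglandin synthesis, was the 1 ligand gene called lower in GIF/ATP4B-DTR against control (-1.40 ± 0.47, edgeR adjusted p = 0.0386), beside 15.4% of all genes. Its controls, at 4.67 and 17.6 CPM, lay far apart, with 4.06 to 4.28 CPM in the double line, and it was at -0.89 for the parietal target (edgeR adjusted p = 0.0615). In GIF/ATP4B-DTR against control 3 ligand genes were called higher, Ddc (2.43), Ptges3 (1.13) and the prostaglandin E synthase gene Ptges2 (0.49, edgeR adjusted p = 0.0463), beside 18.2% of all genes. Gast, the gastrin gene of the antrum, was at most 1.94 CPM in any corpus sample.

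Cckbr sits on enterochromaffin-like cells as well as parietal cells, and markers of the former are shown beside it. Of 6 such markers, 2 were called higher with the parietal target: Ddc and Chgb, a granule protein (log2 2.00 ± 0.44 SE, edgeR adjusted p = 0.0117), beside 14.2% of all genes. Slc18a2, the vesicular amine transporter, was at -0.03 ± 0.25 (edgeR adjusted p = 0.943), and its group mean was 22.6 CPM in control and between 15.8 and 20.8 CPM in the 3 lines. Chga, a granule protein like Chgb, was at 0.92 (edgeR adjusted p = 0.0799), Hdc at 0.79 and Slc18a1 at -0.13. Chgb stood at 9.52 and 20.3 CPM in the controls, at 148, 54.2 and 140 in the samples of ATP4B-DTR, at 17.8, 32.5 and 73 in those of GIF-DTR and at 97.7, 73.9 and 85.2 in those of GIF/ATP4B-DTR. The sum of the 6 markers was 176 to 386 CPM in control, 348 to 1007 in ATP4B-DTR, 241 to 551 in GIF-DTR and 488 to 701 in GIF/ATP4B-DTR, with Slc18a1 at 1.06 CPM or less throughout. In both single lines the sample with the lowest marker sum also had the lowest Cckbr, while in control and in the double line the sample with the lowest sum had the highest Cckbr. In the double line the sums were above both controls and Cckbr was beside the control values. The part of these cells in the Cckbr values was not tested.

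**Figure D5:**
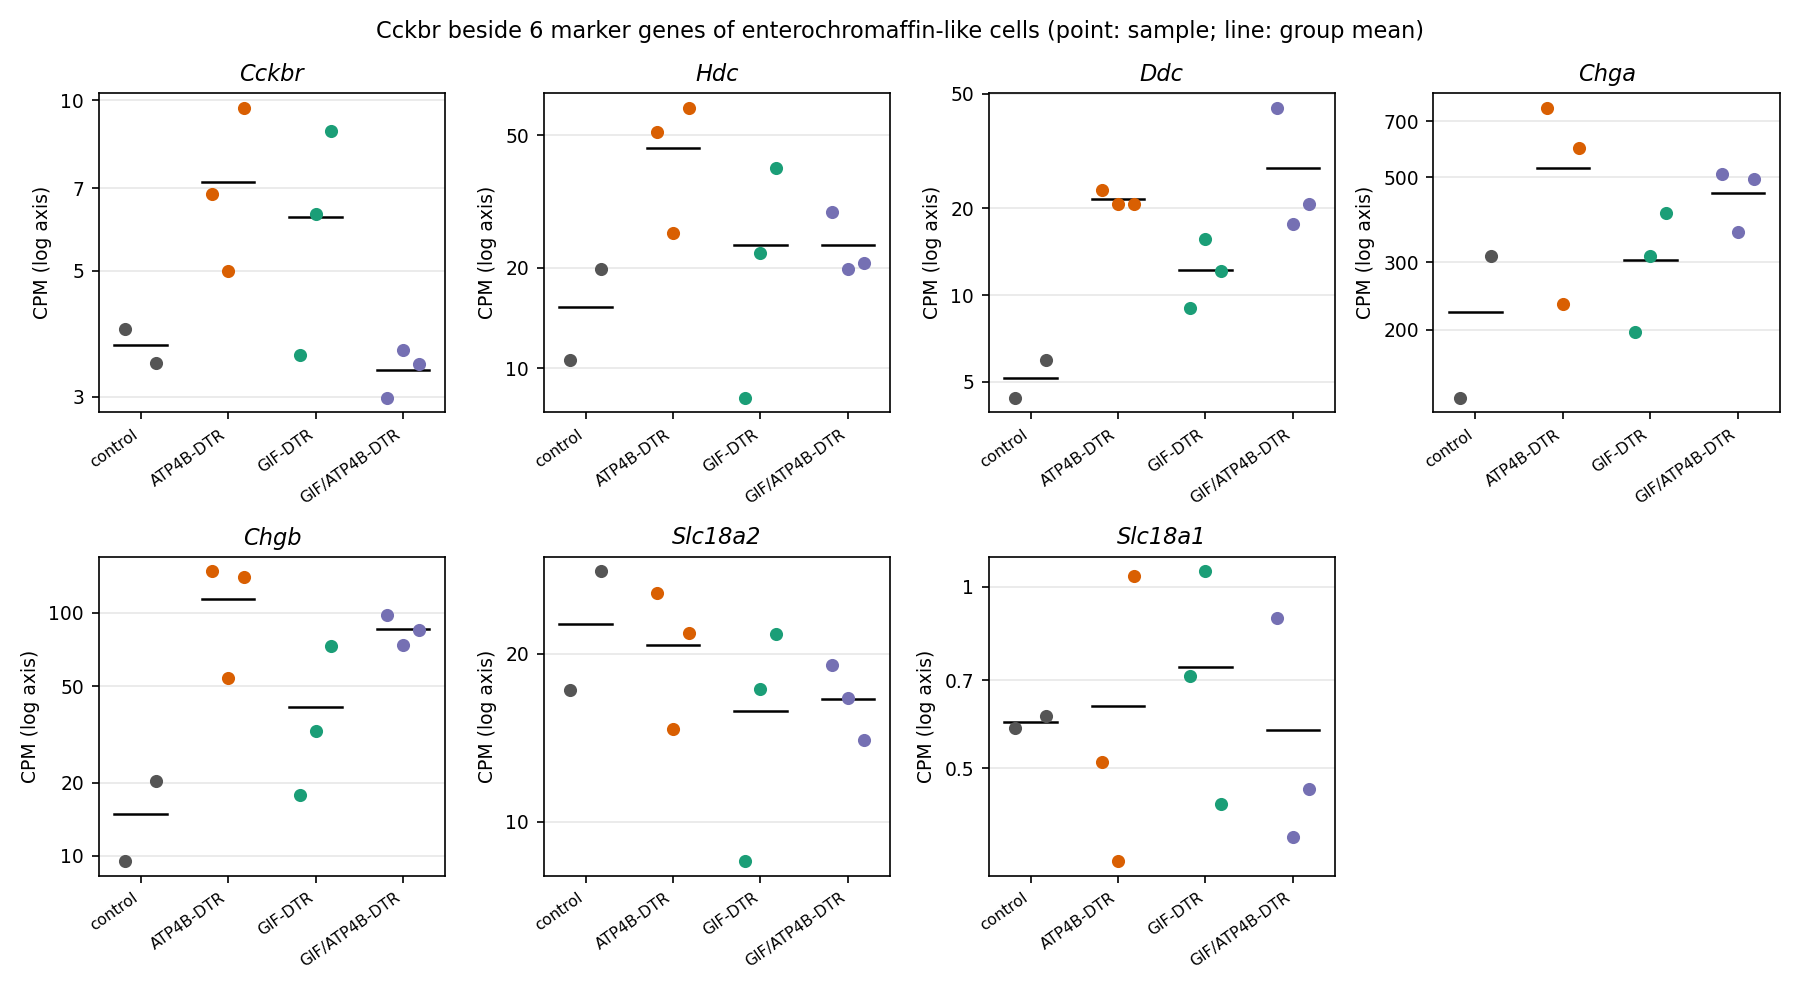
Cckbr beside the 6 markers of the histamine-storing enterochromaffin-like cells (Hdc, Ddc, Chga, Chgb, Slc18a2 and Slc18a1), in CPM on log axes, in each of the 11 samples by genotype, with group means as bars. Chgb in GIF/ATP4B-DTR is at 73.9 CPM or more, above both controls, while Cckbr in that line is at 3.63 CPM or less and Slc18a2 at 14 to 19.1 CPM lies near its control values of 17.2 and 28.1.

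Downstream of the receptors, 25 signalling genes were tested, of which 8 were called lower and 1 higher with the parietal target, beside 11.1% and 14.2% of all genes (median -0.21, against -0.01 over all genes). Itpr2, an inositol trisphosphate receptor that releases stored calcium, stood at 75.4 and 76.5 CPM in the controls, at 17.3, 27.3 and 30.5 in the samples of ATP4B-DTR, at 32.6, 36.5 and 35.7 in those of GIF-DTR and at 10.4, 12.8 and 8.69 in those of GIF/ATP4B-DTR. It had the largest effect of the list, -1.66 ± 0.15 (edgeR adjusted p = 3.72e-05), with no overlap between neighbouring genotypes. The other 7 were Itpr1 at -0.66, the adenylyl cyclases Adcy6 at -0.51, Adcy7 at -1.04 and Adcy9 at -0.56, the protein kinase A subunit Prkacb at -0.49, Camk2b at -0.77 and Ezr, which links membrane to actin in the secretory canaliculus, at -0.41. Between ATP4B-DTR and the controls, Itpr1 and Adcy7 overlapped and the other genes of these 7 did not. Adcy7 was at 2.65 and 6.99 CPM in the controls and at 3.21, 1.49 and 3.52 in ATP4B-DTR. The G protein genes Gnas (-0.17), Gnaq (-0.14) and Gna11 (0.03) did not pass, and Gnai3 rose by 0.36 (edgeR adjusted p = 0.0128). Of the 15 genes of the acid machinery 11 were called lower, beside 11.1% of all genes, led by the anion transporter Slc26a7 at -6.82, and Car2, a carbonic anhydrase, was the 1 called higher (0.45, edgeR adjusted p = 0.0484).

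Related receptors were mostly silent or did not pass. Of 16 other members of the histamine, cholecystokinin, muscarinic, somatostatin, prostaglandin and calcium-sensing families, 7 had enough counts to test and 1 was called lower with the parietal target, which is near the 11.1% of all genes. That was Cckar, the cholecystokinin A receptor, at 46 and 95.5 CPM in the controls, at 38.3, 21.6 and 45.1 in the samples of ATP4B-DTR, at 24.4, 36 and 46.1 in those of GIF-DTR and at 14.5, 11.3 and 3.78 in those of GIF/ATP4B-DTR. Its effect was -1.43 ± 0.37 for the parietal target (edgeR adjusted p = 0.021) and -1.41 ± 0.37 for the chief target (edgeR adjusted p = 0.0321). In GIF/ATP4B-DTR against control 2 of the 7 were called lower, beside 15.4% of all genes. Cckar was at -2.85 (edgeR adjusted p = 0.00435) and the muscarinic receptor Chrm1 at -1.41 (edgeR adjusted p = 0.025), while Cckbr was at -0.14. Of 17 further receptors reported to act on acid secretion or its endocrine control, 13 were tested and 3 were called lower with the parietal target, beside 11.1% of all genes (median of the 13 0.04, against -0.01). Adcyap1r1, the receptor for the peptide PACAP, was at -2.61 ± 0.56. The proton-sensing Gpr65 was at -1.81 ± 0.35 and the GABA B receptor subunit Gabbr1 at -0.87 ± 0.20. Adcyap1r1 was at 46.4 and 41.5 CPM in the controls and at 16.3, 1.3 and 9.48 in GIF-DTR. That change of -2.29 did not pass (edgeR adjusted p = 0.0804). Gpr65 was scarce, at 0.943 and 2.05 CPM in the controls and at most 0.484 with the parietal target. With the chief target 2 of the 13 were called lower, Glp1r, the receptor for glucagon-like peptide 1, at -1.38 and Gabbr1 at -0.74, beside 6.6% of all genes. Ffar4, a fatty acid receptor, was the 1 called higher and rose by 2.77 ± 0.29 (edgeR adjusted p = 0.000985), from 0.449 and 0.499 CPM in control to 3.12 to 7.67 CPM where that target was present (6 samples), beside 9.56% of all genes called higher.

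For each receptor the genes with the most similar profile over the 11 samples were found among 9194 genes with a mean of at least 8 CPM, by Pearson's r of log2 CPM. The points share their libraries and scaling across genes, and the values are descriptive. Hrh2 ran closest to Tmem50b (r = 0.985), the basolateral anion exchanger Slc4a2 (0.984) and Atp4a (0.982). Sstr2 ran closest to Ivd (0.991), Akap2 (0.988) and Rab5b (0.987), and Chrm3 to Nisch (0.980), Akap2 (0.979) and Ivd (0.979), so that a pair of genes stand near both receptors. Gpr155 ran closest to Apoa1 (0.993), Rnase1 (0.991) and Rasgrp3 (0.986), none of which was among the 3 genes closest to another receptor. Apoa1, which encodes the main protein of high-density lipoprotein, had mean levels of 1630 CPM in control, 1229 in GIF-DTR, 81.8 in ATP4B-DTR and 62.6 in the double line. Ptger3 and Cckbr had looser neighbours, led by Isoc2a (0.945) and Mthfd1 (0.878). With Spearman's rho the lists changed: of the 3 genes per receptor, 1 was shared for Cckbr, Chrm3 and Sstr2 and 0 for Hrh2, Ptger3 and Gpr155.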

How the data were processed

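Bulk RNA of mouse gastric corpus mucosa was sequenced in 11 samples, grouped by the genotype label. The libraries were stranded, per the labels' protocols. The authors deposited a table of estimated counts per gene, a unit read from the values, of which 30.7% of the nonzero ones are fractional. The submitters' processing notes name build mm10; the aligner and counter are not given in the sources used here. Symbols matched 99.2% of identifiers, and 93.6% of versioned identifiers are in GENCODE vM21, which gave coordinates. Number of unused columns: 0.

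Counts were rounded, filtered with filterByExpr (14889 genes), scaled by TMM and fitted over all samples with edgeR 4.0.16 (quasi-likelihood, robust, R 4.3.3), with Benjamini-Hochberg adjustment over all genes tested. An adjusted p under 0.05 is called. Receptor minus pump was fitted with limma 3.58.1 on log2 CPM with prior count 2. DESeq2 1.42.0 was an alternative, and the scripts were tested on simulated data. In those data 10.2 to 12.4% of the calls of DESeq2 were false, against 2.56 to 5.03% of those of edgeR. Totals of 20.7 to 27.9 M counts give a floor (3 counts) of 0.107 to 0.166 CPM, which covers counting error only. Named were the 7 receptors, their ligand genes, list members a result turns on, and the 3 genes most like each receptor by Pearson's r. The receptors and lists were chosen with earlier results of these data known. Alternatives were other scalings, filters and tests, the Y-linked index, the pump reference and leaving out each sample.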

Additional observations from a re-analysis of the deposited data

How the results depend on the processing

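No paired analysis was possible because the replicate numbers of the 3 lines are accession order only and pair no samples. The directions that turned belonged to values that had not passed: Cckbr between the single lines ran from -0.54 to 0.07 over the alternatives and reached 0.07 without ATP4B-DTR 3 or GIF-DTR 1. For the parietal target Cckbr was -0.01 by the permutation test's difference of means and -0.11 to 0.18 with single samples left out. The Gpr155 interaction was 0.42 with the Y-linked index and -0.44 to 0.48 with single samples left out, and that of Ptger3 was -1.56 with the index and -0.76 to 0.43 with single samples left out. Receptors called lower in GIF-DTR fell from 3 to 0 with the Y-linked index and to 1 without GIF-DTR 2, GIF-DTR 3 or either control, and those in GIF/ATP4B-DTR against GIF-DTR from 4 to 0 with the index. For the chief target the count fell from 4 to 2 without either control. DESeq2 called 2 receptors higher between the single lines (Sstr2 with Gpr155), and 1 higher (Sstr2) and 1 lower (Cckbr) for the interaction, where edgeR called 0; the fit on samples without Y-linked expression called 0 between the single lines. Relative to the pump, 3 in place of 5 receptors were called higher against Atp4a alone, for the parietal target and in GIF/ATP4B-DTR, and 3 in GIF/ATP4B-DTR without either control, where Gpr155 was also no longer called (0 in place of 1) without control 2. Over all genes the calls moved by over 1.5 times as follows. In ATP4B-DTR against control they went from 3211 to 1849 with the index, 921 in the samples with Y-linked expression and 1315 without control 2. In GIF-DTR against control they went from 2500 to 438 with the index and to between 871 and 1613 with single samples left out. In GIF/ATP4B-DTR against control they went from 5005 to 2874, for the parietal target from 3763 to 2157 and for the chief target from 2405 to 1091 without control 2. In GIF/ATP4B-DTR against GIF-DTR, 376 became 1005 with DESeq2, 14 with the index and 160 to 195 with single samples left out. Between the single lines 73 became 384 with DESeq2 and 23 with the index, and for the interaction 97 became 720 and 6. The cause of these shifts was not tested. Over the receptors' own values, 1225 of the alternatives kept direction and call, 40 lost the call, 12 gained it and 13 turned. Leaving a control out leaves 1, which is then assumed to vary like the other groups. Depth limits Casr, at 0 to 7 counts per sample. Ptger3 and Cckbr had 41 to 234 counts and Gpr155 as few as 38, and whether depth limits these was not tested.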
